A study of Saccharomyces cerevisiae with 4 samples.

Results

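The genes described here serve ammonium uptake, the making and breakdown of glutamate and glutamine, and general amino acid uptake in budding yeast (Saccharomyces cerevisiae). They are the 9 genes GLN1, GLT1, GDH1, GDH2, GDH3, MEP1, MEP2, MEP3 and GAP1, chosen by name from the 7126 features of the deposited count table. All 9 passed the filter on low counts and were tested, and none of them overlaps another annotated feature or lies on chromosome X. Polyadenylated RNA was sequenced from 2 libraries of a wild-type strain (MH1006) and 2 libraries of a strain with the ulp1-I615N allele (MH1018). ULP1 encodes the protease that matures the small modifier SUMO and removes it from proteins. Both strains are of mating type a and carry, per the labels, a mutant allele of leu2 and ura3-52, as well as trp1-289, ade2-delta, ade3-delta and lys1::kanMX4. Both were harvested in mid-log growth at 30°C in YPD, a rich medium of yeast extract, peptone and glucose. The question put to these genes is whether their transcripts changed with the mutant protease. Each group is 1 strain. Nothing in the labels states that its libraries were grown as separate cultures, so the spread behind the p-values may be technical.

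Yeast takes up ammonium through the permeases Mep1, Mep2 and Mep3. The NADP-dependent glutamate dehydrogenases Gdh1 and Gdh3 join ammonium to 2-oxoglutarate to give glutamate, and glutamine synthetase, Gln1, adds ammonium to glutamate to give glutamine. Glutamate synthase, Glt1, returns glutamine to glutamate, and the NAD-dependent dehydrogenase Gdh2 runs the other way, releasing ammonium from glutamate. Gap1 is the general amino acid permease. When a good nitrogen source is present, the GATA activators Gln3 and Gat1 are held back from many genes of this system, which is known as nitrogen catabolite repression.

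The sites that these activators are known for are shown first, because MEP2, MEP3, GAP1 and GDH3 hold several of them. The 500 bases before each start codon were read from the R64 genome of RefSeq, which is the sacCer3 build, and searched on both strands for GATAAG, which reads CTTATC where it lies on the opposite strand. In MEP2, 7 sites were found, at chrXIV:356983-357012, chrXIV:357080-357109, chrXIV:357116-357144 and chrXIV:357208-357237. The first and the third of these stretches are given here with the sites in capitals, where neighbouring sites share a base. The paired sites of MEP3 lie at chrXVI:812682-812711 on the minus strand, and the 3 adjoining sites of GDH3 at chrI:31290-31318. One of the 4 separate sites of GAP1 lies at chrXI:514708-514737.
MEP2 distal sites: tttaaGATAAGaaaGATAAGATAAGacatc
MEP2 middle sites: tcaaagccaGATAAGATAAGaaatgtaaa
MEP3 proximal sites: tccttgtCTTATCgcatCTTATCgcaacaa
GDH3 sites: atattaCTTATCTTATCGATAAGcagtat
GAP1 second site: gatttggtaactGATAAGattgttaaatgt

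The motif was counted 7 times in MEP2, 5 times in MEP3, 4 times in GAP1 and 3 times in GDH3. GLT1, MEP1 and GDH1 had 2 each, and GLN1 and GDH2 had 0. Of 6000 protein-coding genes with a full window of that length, 22.8% held at least 1 such site and 0.55% held 3 or more. A match describes these letters only, and a window can reach into a neighbouring gene. A second motif, TGACTC, which reads GAGTCA on the opposite strand and is the site of Gcn4 and of Bas1, was searched for after the values of the genes had been seen. It occurred once each in GLN1, GDH1 and GDH2 and in none of the other 6 windows, against 12.7% of all windows with at least 1. The site of GLN1 lies at chrXVI:641928-641957 and is shown with the motif in capitals.
GLN1 site: atgaattaaagaTGACTCcgacgcatattg

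**Figure D1:**
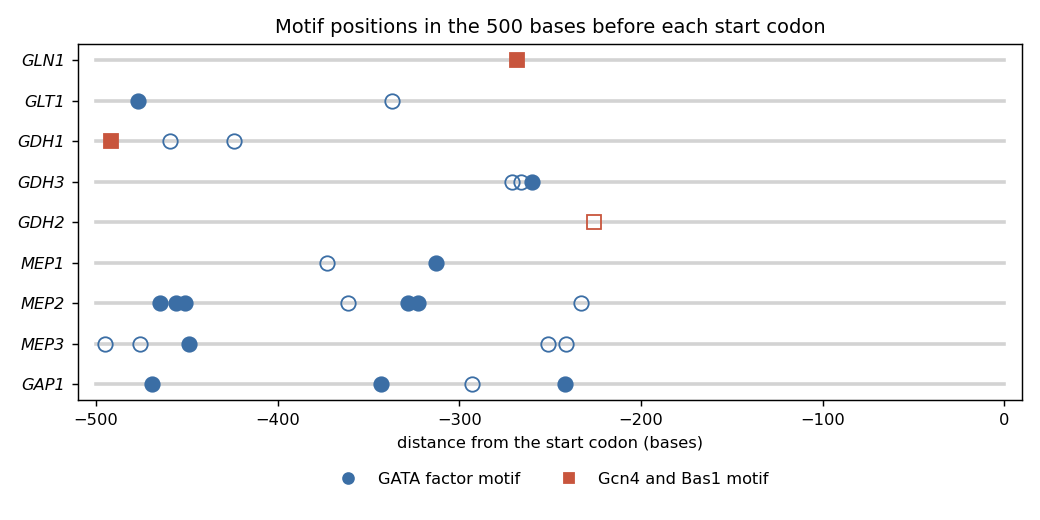
Positions of the GATA factor motif (circles) and of the Gcn4 and Bas1 motif (squares) in the 500 bases before the start codon of each gene, with the distance from the start codon in bases on the x axis. Filled symbols lie on the strand of the gene and open symbols on the opposite strand. MEP2 has 7 GATA motifs and MEP3 5, while GLN1 and GDH2 have 0.

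Among these genes, GDH1 with GDH3 and MEP1 with MEP3 are close paralogs. The coding sequences of GDH1 and GDH3 were identical at 76.7% of 1365 aligned bases, and those of MEP1 and MEP3 at 70.6% of 1459. MEP2 stood further off, at 54.2% with MEP1 and 56.1% with MEP3. The longest stretch shared by GDH1 and GDH3 in that alignment was 35 bases, at chrXV:1042519-1042553 on the minus strand, and the longest shared by MEP1 and MEP3 was 20 bases. Multi-mapping fragments were left out of the counts. Whether fragments of these stretches were lost in that way was not tested.
GDH1 and GDH3 shared stretch: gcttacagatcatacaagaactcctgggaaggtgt

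The libraries held 13244131 to 26723470 counted fragments. ULP1 was counted 1116 to 2061 times in the 4 libraries and was not called different, which does not check a point mutation. LYS1 had 4 or 5 counts in each library, whereas ADE2 and ADE3, listed as deleted in both genotypes, had 3116 to 7104 and 1368 to 3250. Those labels are therefore not borne out by the counts in any of the 4 libraries. The 5 markers of a-cells summed to 1111 to 1200.5 scaled CPM (fragment counts relative to library size, the sizes scaled by TMM). The 4 markers of alpha-cells summed to 39.9 in each library of wild type, against 65.1 and 69.4 in the mutant. One of these, SAG1, lies on chromosome X, and the other 3 summed to 9.39 and 10.1 in wild type, against 13.4 and 13.2 in the mutant. Genes of chromosome X stood higher in the mutant (median log2 fold change 0.73 over 373 tested genes), so the comparison holds the ULP1 allele and a raised chromosome X together, which cannot be told apart. Over all 6139 tested genes 1622 were called higher and 1494 lower. Scaled by library totals alone, this split became 2217 higher and 866 lower, and the median of all genes moved from 0.01 to 0.14 on the log2 scale.

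In the ulp1-I615N strain, glutamine synthetase, glutamate synthase, the main glutamate dehydrogenase and a pair of the ammonium permease transcripts were lower, and the minor glutamate dehydrogenase GDH3 was higher. Of the 9 genes, 5 fell, 1 rose and 3 were not called (quasi-likelihood test of edgeR, adjusted by Benjamini-Hochberg to p under 0.05). Over all tested genes, 24.3% were called lower, 26.4% higher and 50.8% in either direction. The median log2 fold change of the 9 genes was -0.28, beside 0.01 for all tested genes. The scaled CPM of the groups did not overlap for any of the 9 genes, which was also the case for 74.1% of all tested genes. Most changes were small, and GLN1 was the sole called gene of the 9 that differed by at least 1.5-fold. With 1 library left out, 4 to 7 of the 9 were called, the lowest number without ulp1-I615N replicate 1.

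**Figure D2:**
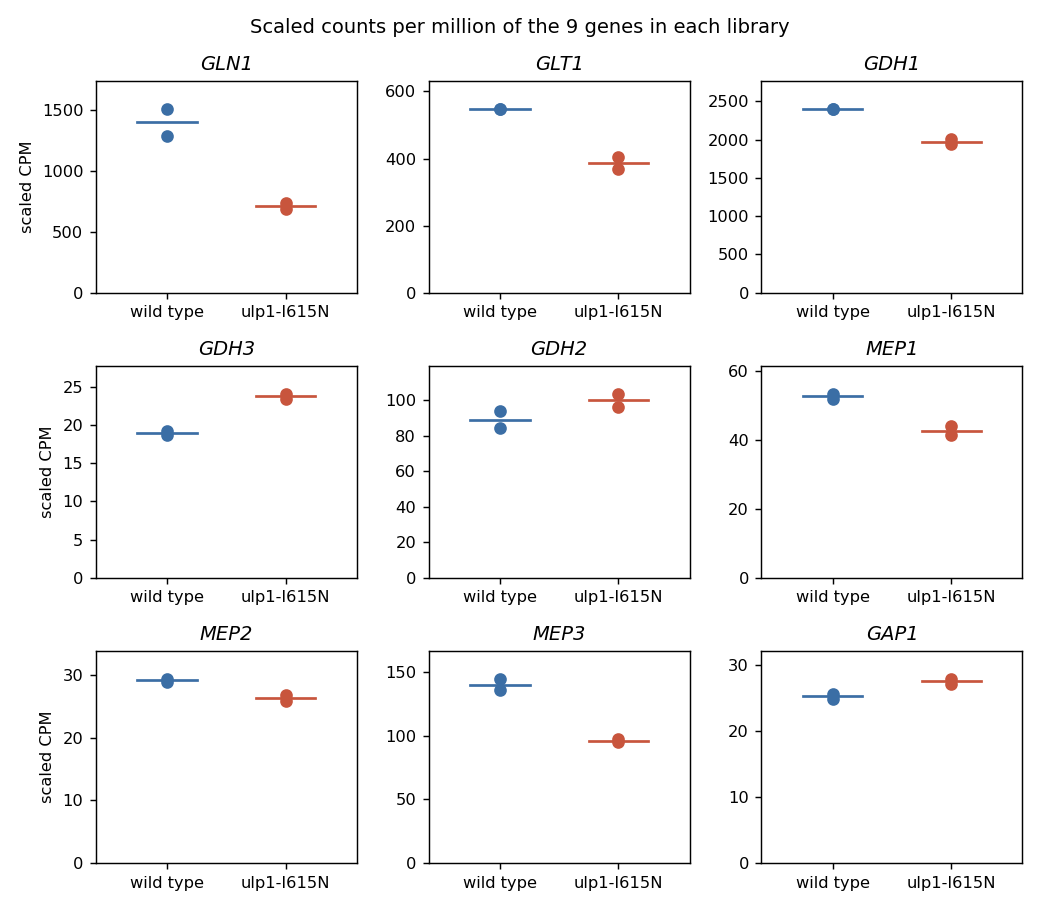
Scaled CPM of each of the 9 genes in the 2 wild-type (blue) and 2 ulp1-I615N (red) libraries, 1 point per library, with a bar at the mean of each group. Each y axis starts at 0 and has its own range. The points of the groups do not overlap for any gene, and the widest separation is that of GLN1, at 1509 and 1288 in wild type against 690 and 732 in the mutant.

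GLN1 (YPR035W, chromosome XVI, 642208 to 643320 of sacCer3) encodes glutamine synthetase. Its fragments numbered 22660 and 23386 in wild type, and the mutant libraries gave 9661 and 20261. Scaled levels were 1509 and 1288 CPM for wild type, against 690 and 732 CPM for the mutant. Wild type replicate 1 was the highest library, and both mutant libraries lay well below both wild-type libraries. GLN1 thus fell 1.97-fold, with means of 1398 ± 156 CPM before and 711 ± 29.6 CPM after (SD, n = 2 in each group). Its log2 fold change was -0.98 ± 0.09 SE (edgeR adjusted p = 1.72e-07). Only 52 of the 6139 tested genes had a lower log2 fold change. The value stayed called in each of 15 other settings, between -1.09 and -0.85. In these data 3 other genes moved most like GLN1 over the 4 libraries, by the root mean square distance between centred log2 CPM values. They were ADE13 and ADE1, genes of purine synthesis enzymes, at 0.02 and 0.03, and YBR238C at 0.04. ADE13 went from 1399 ± 130 to 709 ± 37.9 CPM.

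GLT1 (YDL171C, chromosome IV, 149203 to 155640) encodes glutamate synthase, which works together with glutamine synthetase. Its scaled level was 547 and 549 CPM in wild type and 368 and 404 CPM in the mutant. The wild-type libraries were nearly equal, and mutant replicate 1 was the lowest. GLT1 fell 1.42-fold (log2 fold change -0.50 ± 0.07 SE, edgeR adjusted p = 2.16e-05), and it stayed called in each of the 15 other settings. Per kilobase of length, GLN1 stood 15.96 and 13.6 times as high as GLT1 in wild type, and in the mutant the ratio was 10.8 and 10.5. The log2 ratio of GLN1 to GLT1 was thus 0.47 lower in the mutant on average, and the groups did not overlap. Ratios between genes were not tested.

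GDH1 (YOR375C, chromosome XV, 1041678 to 1043042), the main NADP-dependent glutamate dehydrogenase gene in growth on glucose, was the most abundant of the 9 transcripts. Its scaled level was 2406 and 2399 CPM in wild type and 1949 and 2004 CPM in the mutant. The replicates lay close together in both groups. GDH1 fell 1.22-fold (log2 fold change -0.28 ± 0.08 SE, edgeR adjusted p = 0.00796). The call was lost without ulp1-I615N replicate 1 (-0.26, adjusted p = 0.0743) and with library totals as the only scaling (-0.15, adjusted p = 0.0593).

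GDH3 (YAL062W, chromosome I, 31567 to 32940), the paralog of GDH1 known for expression on non-fermentable carbon sources, moved the other way. It was counted 280 and 349 times in wild type and 328 and 666 times in the mutant, or 18.6 and 19.2 CPM against 23.4 and 24.1 CPM. Both mutant libraries stood above both wild-type libraries. GDH3 rose 1.25-fold (log2 fold change 0.33 ± 0.11 SE, edgeR adjusted p = 0.0183). The call was lost without wild type replicate 1 (0.29, adjusted p = 0.0723), without ulp1-I615N replicate 2 (0.31, adjusted p = 0.0989) and with DESeq2 (0.32, adjusted p = 0.0849). GDH3 made up 0.764% and 0.790% of the summed per-length level of GDH1 and GDH3 in wild type, and 1.18% in each mutant library. Per length, the ratio of GDH1 to GDH3 was 130 and 126 for wild type but 83.8 and 83.9 for the mutant. When GDH1 and GDH3 were counted as 1 feature, the sum fell with a log2 fold change of -0.28 (adjusted p = 0.00914).

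GDH2 (YDL215C, chromosome IV, 70640 to 73918), the NAD-dependent dehydrogenase gene of glutamate breakdown, had 84.6 and 93.8 CPM in wild type and 103.8 and 96.2 CPM in the mutant. The mutant libraries were higher, but wild type replicate 2 and mutant replicate 2 lay close together. The difference was not called (log2 fold change 0.16, 95% interval 0.01 to 0.31, edgeR adjusted p = 0.0787). It passed without wild type replicate 2 (0.24, adjusted p = 0.0124), without ulp1-I615N replicate 2 (0.22, adjusted p = 0.0481), with library totals as the only scaling (0.29, adjusted p = 0.00288), with scaling from genes outside chromosome X (0.19, adjusted p = 0.0403) and with a replicate block (0.16, adjusted p = 0.0357). The per-length ratio of GDH1 to GDH2 was 68.4 and 61.4 in wild type, against 45.1 and 50.05 in the mutant.

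**Figure D3:**
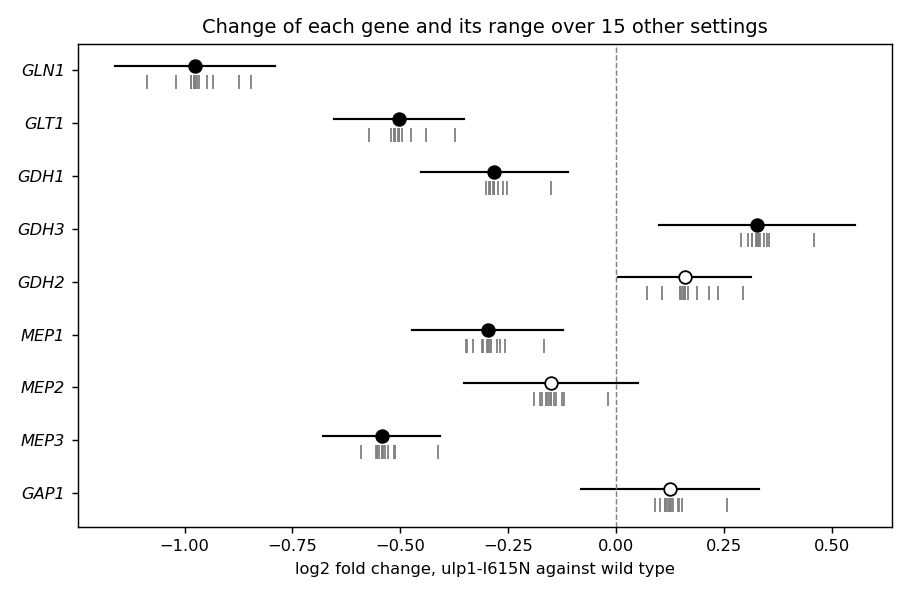
Log2 fold change of each gene in ulp1-I615N against wild type, with its 95% interval (lines) and its value in 15 other settings of scaling, filter, test, depth, block and library left out (grey ticks). Filled points were called at an adjusted p under 0.05 and open points were not. No estimate changes sign over the settings for any gene, but the 95% intervals of MEP2 and GAP1 cross 0. GLN1 stands lowest at -0.98.

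The ammonium permeases differed in how far they moved. MEP3 (YPR138C, chromosome XVI, 810984 to 812453), the gene of a low-affinity permease, was the most abundant of the 3 per length and changed the most. Its scaled level was 144.5 and 135 CPM in wild type and 97.0 and 95.1 CPM in the mutant, a fall of 1.46-fold (log2 fold change -0.54 ± 0.06 SE, edgeR adjusted p = 3.22e-06). MEP3 stayed called in each of the 15 other settings. MEP1 (YGR121C, chromosome VII, 731449 to 732927) had 51.8 and 53.3 CPM in wild type and 41.3 and 43.99 CPM in the mutant. MEP1 fell 1.23-fold (log2 fold change -0.30 ± 0.08 SE, edgeR adjusted p = 0.00683). The call was lost without ulp1-I615N replicate 1 (-0.26, adjusted p = 0.0569) and with library totals as the only scaling (-0.17, adjusted p = 0.147). Counted as 1 feature, MEP1 and MEP3 fell with a log2 fold change of -0.47 (edgeR adjusted p = 7.07e-06).

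MEP2 (YNL142W, chromosome XIV, 357453 to 358952), the gene of the high-affinity permease that also takes part in signalling for filamentous growth, was the least abundant of the permeases. It was counted 435 and 534 times in wild type and 375 and 718 times in the mutant, or 29.0 and 29.4 CPM against 26.8 and 25.9 CPM. The groups did not overlap, but the difference was not called (log2 fold change -0.15, 95% interval -0.35 to 0.05, edgeR adjusted p = 0.207), nor was it in any of the 15 other settings. The interval holds no change as well as a fall as large as that of GDH1. The summed per-length level of the 3 permease genes was 153 and 148 CPM per kilobase in wild type and 112 in each mutant library. Of that sum MEP3 held 64.4% and 62.3% in wild type, against 59.0% and 57.9% in the mutant. MEP2 held 12.7% and 13.3% in wild type, against 15.97% and 15.5% in the mutant.

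**Figure D4:**
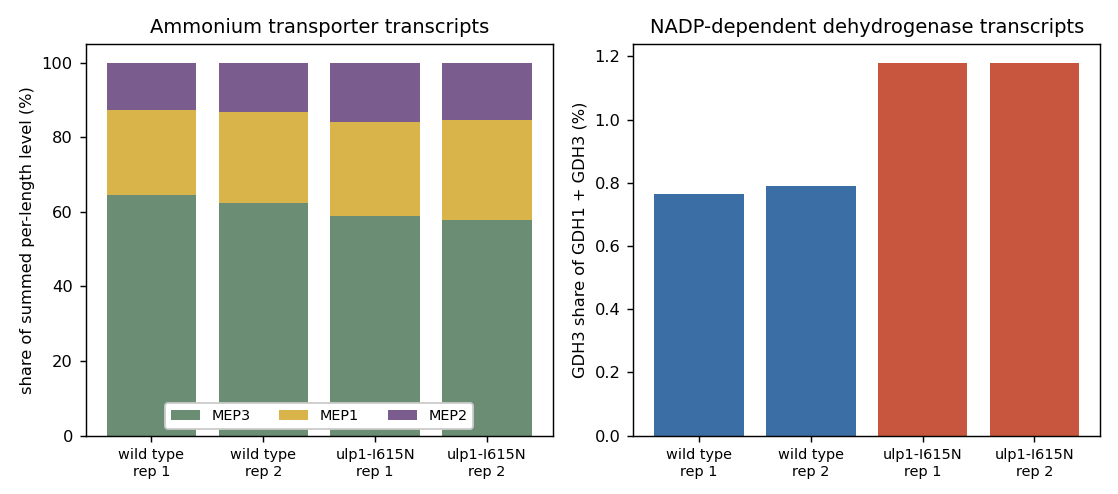
Left, the share of the summed per-length level of the ammonium permease transcripts taken by MEP3 (green), MEP1 (yellow) and MEP2 (purple) in each library. Right, the share of GDH3 in the summed per-length level of GDH1 and GDH3, which is 0.764% and 0.790% in wild type (blue) and 1.18% in each ulp1-I615N library (red).

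GAP1 (YKR039W, chromosome XI, 515063 to 516871), the general amino acid permease gene and a standard readout of nitrogen catabolite repression, was low in both strains. It had 24.8 and 25.6 CPM in wild type and 27.1 and 27.8 CPM in the mutant. The mutant libraries were slightly higher in both replicates. The difference was not called (log2 fold change 0.13, 95% interval -0.08 to 0.33, edgeR adjusted p = 0.305), and it was not called in any of the 15 other settings.

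Levels per kilobase spread widely over the 9 genes. In wild type the order ran from GDH1 at 1760 CPM per kilobase and GLN1 at 1256 through MEP3 at 95.2, GLT1 at 85.1, MEP1 at 35.5, GDH2 at 27.2 and MEP2 at 19.5 to GAP1 at 13.9 and GDH3 at 13.8. The last pair overlapped between libraries, and every other pair of neighbours in this order was separate. GDH1 and GLN1 stood above 97.5% and 96.9% of the tested genes per length in wild type, whereas GAP1 and GDH3 stood above 18.6% and 18.5%. In the mutant the order began in the same way, with GDH1 at 1448, GLN1 at 639, MEP3 at 65.3 and GLT1 at 60.0 CPM per kilobase. GDH2 at 30.5 then overlapped MEP1 at 28.8, MEP2 at 17.6 overlapped GDH3 at 17.3, and GAP1 at 15.2 came last.

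Of the 18 nearest features, 1 on each side of each of the 9 genes, 14 were tested. Of these, 2 were higher, 1 was lower and 11 did not pass, beside 50.8% called over all tested genes. Some that did not pass were thin, such as YOR376W (5 to 32 counts a library) and tN(GUU)P (9 to 25). The depth limits what can be shown for those. ALD4, which encodes a mitochondrial aldehyde dehydrogenase and ends 279 bases from the end of GDH1, rose from 56.7 ± 0.95 to 207 ± 0.03 CPM (SD over 2 libraries per strain; log2 difference 1.87, edgeR adjusted p = 2.77e-12), while GDH1 fell. Strand was ignored in the counting. AAH1, the adenine deaminase gene downstream of MEP2, fell by 0.65 on the log2 scale (adjusted p = 2.20e-07), and PRR2, a protein kinase gene beside GDH2, rose by 0.84 (adjusted p = 0.000499). UGA3, the activator gene of GABA use that lies beside GLT1, was not called.

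Other genes of the pathway were read from 8 lists, which share some members with each other and with the 9 genes. Apart from the 9, they hold 117 different genes, of which 115 were tested, 41 were higher, 23 lower and 51 not called. Their median log2 fold change was 0.08, beside 0.01 for all tested genes. Without the 7 tested genes on chromosome X, 34 were higher and 23 lower. Scaled by library totals alone, 53 were higher and 11 lower. The counts that follow stand against the 26.4% of all tested genes called higher and the 24.3% called lower.

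The list of ammonium transport and its control holds 5 tested genes besides the permeases, of which 4 rose and 1 fell. PAR32, which encodes an inhibitor of Mep1 and Mep3, rose from 44.3 ± 0.60 to 56.0 ± 5.05 CPM (SD over 2 libraries per strain; log2 difference 0.34, edgeR adjusted p = 0.00341). NPR1, the gene of the kinase that keeps Mep2 and Gap1 active, rose from 63.6 ± 1.57 to 74.8 ± 4.36 CPM (0.24, edgeR adjusted p = 0.0132). Of the genes linked to ammonium export, ADY2 rose by 0.79 and ATO2 by 0.42 on the log2 scale, and ATO3, named after its value was seen, fell by 0.21. Each of these 5 calls was lost without ulp1-I615N replicate 2, at adjusted p from 0.0761 for ATO3 to 0.271 for ATO2. NPR1 was also lost without wild type replicate 1 (adjusted p = 0.0593), as was ATO2 (0.217), and ADY2 and ATO3 without wild type replicate 2 (0.117 and 0.191). With DESeq2, NPR1 (adjusted p = 0.0655) and ATO2 (adjusted p = 0.118) did not pass, and ATO3 was lost when scaled by library totals alone (adjusted p = 0.371). PAR32 (chromosome IV, 148191 to 149078) overlaps another annotated feature, YDL172C (148607 to 149086). With no strand or overlap option, fragments on the shared bases were counted for neither. The 0 counts of YDL172C therefore tell nothing of its expression, and PAR32 was counted on part of its length only.

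The list of 2-oxoglutarate supply covers enzymes and carriers around the carbon acceptor of ammonium. Of its 17 tested genes, 12 were higher, 2 lower and 3 not called, beside 26.4% and 24.3% over all tested genes, and the median was 0.30. CIT1, the mitochondrial citrate synthase gene, rose from 101 ± 7.69 to 236 ± 10.1 CPM (SD over 2 libraries per strain; log2 difference 1.23, edgeR adjusted p = 8.69e-10). IDH2, a subunit gene of isocitrate dehydrogenase, rose by 1.21 on the log2 scale, and IDH1, the other subunit gene, by 0.82. ACO1, the aconitase gene, rose by 0.80, and both IDH1 and ACO1 were named after their values were seen. IDP2, the cytosolic NADP-dependent isocitrate dehydrogenase gene, rose by 1.01 and the pyruvate carboxylase gene PYC1 by 0.83. These 6 genes stayed called in each of the 15 other settings, while IDH2 overlaps another annotated feature. The 12 higher genes include KGD1, KGD2 and LPD1, named after their values were seen, which encode subunits of 2-oxoglutarate dehydrogenase and so consume 2-oxoglutarate. They rose by 0.34, 0.42 and 0.20 on the log2 scale. The 2 lower genes, ODC2 and PYC2, were also named after their values were seen. ODC2, a carrier gene, stood at -0.68, and PYC2, the other pyruvate carboxylase gene, at -0.33. PYC2 went from 732 ± 9.33 to 581 ± 9.18 CPM, whereas PYC1 went from 128 ± 6.05 to 228 ± 6.25 CPM. The call of LPD1 was lost without wild type replicate 2 (adjusted p = 0.105), without ulp1-I615N replicate 1 (adjusted p = 0.0823) and without ulp1-I615N replicate 2 (adjusted p = 0.0610).

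Targets of nitrogen catabolite repression moved in both directions. Of 35 tested, including 6 of the 9 genes, 15 were higher, 8 lower and 12 not called, with a median of 0.13, beside 26.4% higher and 24.3% lower over all tested genes. Without the 6, it was 14 higher, 5 lower and 10 not called. The proline oxidase gene PUT1 rose from 9.08 ± 0.15 to 24.6 ± 0.28 CPM (SD over 2 libraries per strain; log2 difference 1.44, edgeR adjusted p = 1.32e-07), the proline permease gene PUT4 by 1.34, the ribonuclease gene RNY1 by 1.23 and UGA2, a gene of GABA breakdown, by 1.12. The largest falls, named after their values were seen, were those of the oligopeptide transporter gene OPT2 at -1.08 and the urea amidolyase gene DUR12 at -1.02. DUR12 went from 228 and 265 CPM in wild type to 110 and 132 CPM in the mutant.

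Among the regulators of these targets, 13 were tested, of which 3 were higher, 2 lower and 8 not called, beside 50.8% called over all tested genes. The median was 0.08. Scaled by library totals alone, 6 were higher and 0 lower, and without ulp1-I615N replicate 2 it was 2 higher and 0 lower. Neither of the GATA activator genes was called, and both are named for their role. GLN3 had 54.2 and 58.1 CPM in wild type and 56.6 and 51.8 CPM in the mutant, and GAT1, which overlaps another feature, had 50.2 and 44.2 against 43.1 and 40.5 CPM. URE2, another gene of this list, named after its value was seen, was called lower (log2 fold change -0.22, edgeR adjusted p = 0.0263). It had 180 and 154 CPM in wild type and 149 and 139 CPM in the mutant, so wild type replicate 2 lay close to mutant replicate 1. The URE2 call was lost with library totals as the only scaling and without ulp1-I615N replicate 2. It was also lost in the test against a fold of 1.2. The GATA repressor gene DAL80 was called higher (edgeR adjusted p = 0.0150), but it rests on 7 and 2 wild-type counts against 11 and 35 mutant counts. Its call was lost without wild type replicate 2 (adjusted p = 0.170) and without ulp1-I615N replicate 2 (adjusted p = 0.234) and with DESeq2 (adjusted p = 0.0784), and the gene overlaps another feature. TOR1, the gene of a kinase that responds to nitrogen, rose by 0.47 and the GATA factor gene GZF3 by 0.37, and both lie on chromosome X. The phosphatase gene SIT4 fell by 0.26, and this call was lost without ulp1-I615N replicate 2 (adjusted p = 0.0633) and with library totals as the only scaling (adjusted p = 0.170).

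Of 10 other regulators of glutamate genes, 1 was higher, 0 lower and 9 not called (edgeR). Scaled by library totals alone 3 were higher, and without wild type replicate 1 it was 2. HAP4, the regulatory subunit gene of the activator of respiratory genes, rose from 56.2 ± 11.9 to 101 ± 4.85 CPM (SD over 2 libraries per strain; log2 difference 0.85, edgeR adjusted p = 0.000631). GCN4, the gene of the activator of amino acid synthesis, was at -0.17 and was not called (adjusted p = 0.0718). With a replicate block it passed (adjusted p = 0.00348), as it did with DESeq2 (adjusted p = 0.0174).

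Of 20 amino acid permease genes, with GAP1 among them, 4 were higher, 8 lower and 8 not called, and the median was -0.06. Scaled by library totals alone, 5 were higher and 2 lower, with a median of 0.08, and without ulp1-I615N replicate 2 it was 3 higher and 4 lower. PUT4 rose by 1.34, AGP2 by 0.98 and UGA4, the GABA permease gene, by 0.79 on the log2 scale, and MMP1, the S-methylmethionine permease gene, fell by 0.88. UGA4 was lost without ulp1-I615N replicate 1 (adjusted p = 0.0537). Of 15 genes of Gap1 trafficking and permease control, 4 were higher, 2 lower and 9 not called. This split was 8 and 0 when scaled by library totals alone, 3 and 4 without wild type replicate 1, and 3 and 1 without ulp1-I615N replicate 2. The protease gene SSY5 of the amino acid sensor, on chromosome X, rose by 0.67 on the log2 scale. ECM21 rose by 0.49, the activator gene STP2 by 0.33 and NPR1 by 0.24. The 2 lower genes, named after their values were seen, were SHR3 and LST4, each at -0.22. Neither was called lower when scaled by library totals alone.

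Of 13 genes of glutamate use, the GABA shunt and related amino acid synthesis, 4 were higher, 4 lower and 5 not called. Scaled by library totals alone, it was 5 higher and 3 lower. GAD1, the glutamate decarboxylase gene that opens the GABA shunt, had 13.9 and 14.2 CPM in wild type and 76.8 and 75.5 CPM in the mutant (log2 fold change 2.44 ± 0.09 SE, edgeR adjusted p = 8.50e-12). It was the largest rise in any of the 8 lists. The next steps of the shunt rose as well, UGA1 by 0.68 and UGA2 by 1.12. GSH1, the gene of the first step of glutathione synthesis, on chromosome X, rose by 0.61. The 4 lower genes, named after their values were seen, were ALT2 at -0.58, the asparagine synthetase gene ASN1 at -0.36, PRO2, a gene of proline synthesis, at -0.30 and AAT1, an aspartate aminotransferase gene, at -0.29. AAT1 was lost when scaled by library totals alone (adjusted p = 0.105).

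**Figure D5:**
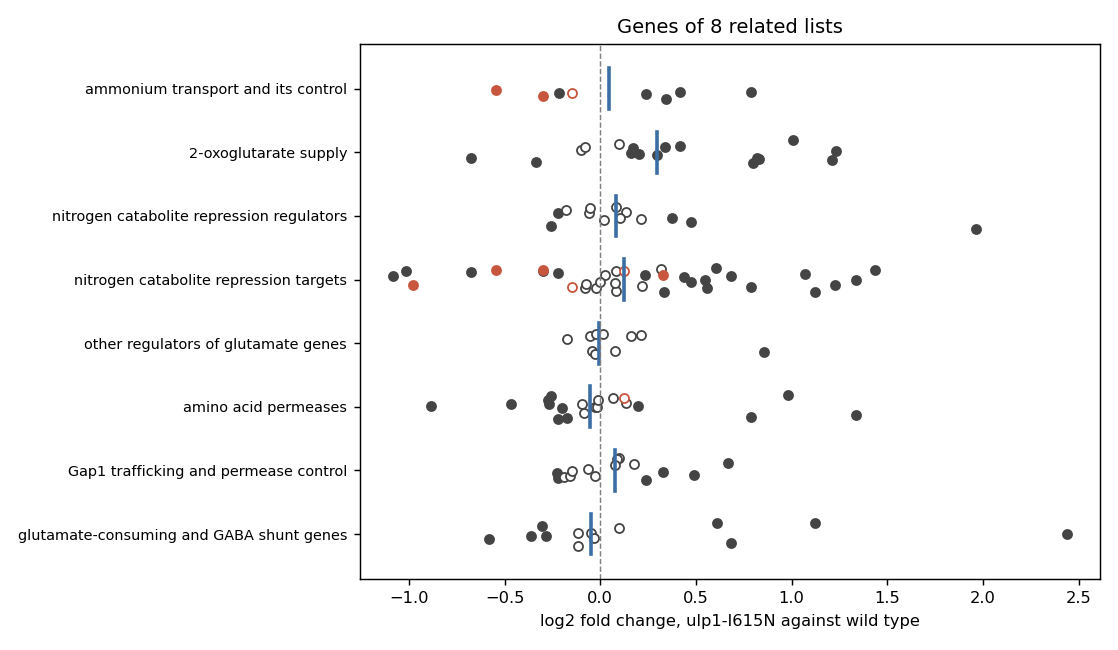
Log2 fold change in ulp1-I615N against wild type of the tested genes of 8 related lists, 1 point per gene and list, with a blue bar at the median of each list. Red points are genes among the 9, grey points are others, and filled points were called. In the list of 2-oxoglutarate supply 12 of 17 genes are higher, and GAD1 at 2.44 stands farthest to the right.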

How the data were processed

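Raw fragment counts per gene were deposited by the authors, made with featureCounts 2.0.0 on read pairs, per the file headers, with no strand, multi-mapping or overlap option. The submitters' processing notes name HISAT2 2.1.0 and sacCer3, while for the annotation version the sources used here give nothing. Length, the summed exon length of a feature, is deposited in the same table, per the file headers. Libraries were a directional polyA kit, per the labels' protocols.

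Of 7126 features, 6139 passed edgeR's default filter (minimum count 10, minimum total 15). The test was edgeR 4.0.16's quasi-likelihood F test in R 4.3.3, with TMM scaling, robust dispersions and no replicate block, Benjamini-Hochberg adjusted over all tested genes. Standard errors came from the F statistics. A count of 0 would allow 0.112 to 0.227 CPM (3 counts, counting error only). Alternatives included DESeq2 1.42.0 and limma-voom (limma 3.58.1). On simulated data for the same comparison over 6139 genes, 50 genes were changed at each fold. The test recovered 66% of those changed 1.25-fold, 90% at 1.5-fold and 100% at 2-fold, with 10 false calls. In the data 50.8% of genes were called, a larger share than was changed in the simulation, so recovery there may differ.

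The genes and lists were chosen with earlier results of these data known. Named genes are the 9, up to 4 called members of each list by size of change (or the 2 with the smallest p where fewer than 2 were called), the nearest features on each side, the 3 genes most like the largest called change, and the strain checks. Other genes are said to be named after their values. Sequences and coding sequence identities came from the RefSeq R64 genome (Biopython 1.88). Protein sequences were not used here, so the planned protein identity was replaced by that of coding sequences. All 9 genes had the same start and end in the table and in that genome's annotation.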

Additional observations from a re-analysis of the deposited data

How the results depend on the processing

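Over 15 settings, the 9 genes gave 135 values, of which 120 kept their direction and their side of the threshold, 10 were no longer called, 5 became called and 0 changed direction. The number of called genes among the 9 was 5 with library totals only, beside 3083 of the 6139 tested genes. With DESeq2 it was 5, beside 2615 of all genes. With scaling from genes outside chromosome X it was 7, beside 3093 of all genes. With the paralogs summed it was 4 of 7 features. In the test against a fold of 1.2 it was 3 of the 9, with 33 of the other listed genes and 1547 of all genes, and that test asks for a larger change by its construction. GDH1 (adjusted p = 0.440), GDH3 (0.304) and MEP1 (0.368) were not called there, while GLN1, GLT1 and MEP3 were. With 1 library left out, 2604 to 3051 genes were called in all, 4 to 7 of the 9 and 46 to 62 of the listed genes, and the lone library of a group is then assumed to vary like the other group.

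With a replicate block, 3433 of all genes and 7 of the 9 were called, GDH2 being added (log2 fold change 0.16). Same-numbered libraries deviated together with a correlation of 0.08 over the 6139 tested genes and 0.13 over the 5732 with a mean of at least 50 counts. They also share a letter in their library names, whose meaning the labels do not give, so whether the numbers pair the libraries is not settled and they were not treated as pairs. GDH3, MEP2 and GAP1, with 280 to 771 counts a library, are the thinnest of the 9, and the depth limits what can be shown for them.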
